A study of Arabidopsis thaliana with 12 samples.

Results

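In plants, cytosines are methylated in CG, CHG and CHH sequence contexts, where H is A, C or T. CG methylation is copied after replication by the methyltransferase MET1. CHG methylation is kept by CMT3 in a loop with the histone H3K9 methyltransferase KYP. CHH methylation depends on CMT2 in heterochromatin and on RNA-directed DNA methylation, in which RNA polymerase IV starts the small RNAs that guide the methyltransferase DRM2. The chromatin remodeller DDM1 gives these enzymes access to compact heterochromatin, where most transposable elements (TEs) of Arabidopsis thaliana lie. The TEs described here carried CG and CHG methylation in wild type with little CHH methylation, and had low CG methylation in the ddm1 mutant.

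The members were chosen from measured values. A TE was taken if it had 30 or more cytosine calls in every context in each of the 6 groups, CG at or above 70%, CHG at or above 30% and CHH below 5% in wt control, and CG below 50% in ddm1 control. Of 31189 TEs in the table, 8051 had enough calls, and 2465 of these (30.6%) met all limits. The wt control and ddm1 control levels were therefore used for the choice, and every comparison with either is given as a description without a test. The heat groups and both poliv groups were not used.

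Methylation was measured by bisulfite sequencing, in which unmethylated cytosines are read as thymine, in nuclei of shoot stem cells from inflorescence apices at day 28. The 12 samples form 6 groups of 2: ddm1 heat and ddm1 control (ddm1-10), poliv heat and poliv control (nrpda-3, which disrupts the largest subunit of RNA polymerase IV), and wt heat and wt control. All of them, wt included, are in the Col-0 background and carry pCLV3::H2BmCherry, a nuclear reporter driven by the promoter of the stem cell gene CLV3, and nuclei were sorted by its fluorescence. Heated plants spent 1 day at 37 °C until day 7 and then recovered for 21 days. Marker genes could not be used to check the sorted cells, since expression was not measured in these samples.

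Each group has 1 pooled column set in the table, and the spread between plants is therefore unknown. All tests below compare the calls of pooled libraries and not conditions, and the intervals are 95% Wilson intervals that cover counting error only. The groups held between 30597398 CG calls (wt control) and 48850347 CG calls (ddm1 control). The chloroplast genome, which is unmethylated and so measures cytosines that failed to convert, had CHH levels of 0.390 to 0.805% and was higher in heat than in control in each genotype. DDM1 itself had a CHG level of 48.7% in ddm1 heat and 49.5% in ddm1 control, against at most 0.594% in the other 4 groups. NRPD1, the disrupted gene of poliv, had a CHG level of 14.9% in both poliv groups, against 6.93 and 6.71% in ddm1 and 0.951 and 0.730% in wt (heat first in each pair).

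Just inside and just outside the limits, TEs had nearly the same levels. AT1TE70875 had 70.1% CG in wt control and was a member, while AT3TE47985 had 69.9% and was not. For CHG in wt control, AT1TE54935 had 30% inside and AT4TE08950 had 29.8% outside. For CHH in wt control, AT1TE46355 lay just below the limit and AT1TE46030 had exactly 5%. For CG in ddm1 control, AT3TE46395 had 49.8% inside and AT1TE53450 had 50% outside. The CHH limit alone left out 2757 TEs, the CHG limit 345, the ddm1 limit 52 and the CG limit 40.

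In ddm1 these TEs had lost most CG and CHG methylation, and the CHH level was lower by a smaller share. The median CG level was 8.37% in ddm1 heat and 10.1% in ddm1 control, against 91.0% in wt heat and 89.3% in wt control. The median CHG level was 5.98% in ddm1 heat and 5.60% in ddm1 control, against 49.4% in wt heat and 50.8% in wt control. The median CHH level was 1.57% in ddm1 heat and 1.04% in ddm1 control, against 4.44% in wt heat and 3.70% in wt control. In poliv the medians stayed near those of wt, with 90.0% CG, 49.0% CHG and 4.12% CHH in poliv heat and 89.4%, 49.0% and 3.91% in poliv control.

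**Figure D1:**
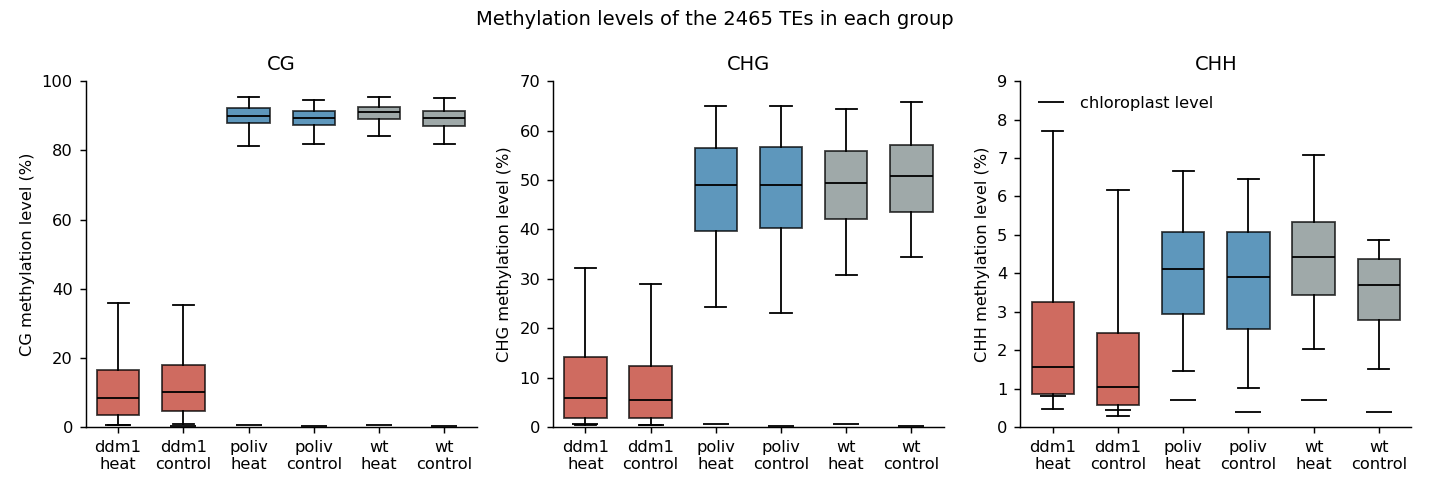
Methylation level (%) of the 2465 TEs in CG, CHG and CHH in each of the 6 groups. Boxes span the quartiles with the median as a line, whiskers run over the 5th to the 95th percentile, and black dashes give the chloroplast level. The ddm1 boxes lie near 10% in CG against near 90% in the other groups.

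Relative to the wt level of the same TE, a median of 9.23% of CG methylation, 12.3% of CHG methylation and 38.7% of CHH methylation was left in ddm1 heat. In control the shares left in ddm1 were 11.4% in CG, 11.4% in CHG and 33.6% in CHH. The CHH share included unconverted cytosines: with the chloroplast level subtracted from each group, 22.1% of CHH was left in ddm1 heat and 20.9% in ddm1 control, against 8.48% and 11% for CG and 10.9% and 10.6% for CHG. In poliv the median share of the wt level was 98.8% in CG, 99.1% in CHG and 95.4% in CHH under heat.

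The comparison of ddm1 heat with wt heat asked which TEs differed in columns that the choice had not used. Levels were tested per TE by a two-sided Fisher's exact test on methylated and unmethylated calls, with Benjamini-Hochberg adjustment and a threshold of 0.05. The adjustment ran over 10019 TEs for CG, over 9184 for CHG and over 23004 for CHH. A TE needed enough calls only in the context tested, so the CHH shares of all TEs include many TEs that could not be members. All 2465 members fell in CG, where 78.4% of all TEs tested were lower and 0.429% higher, and no member was higher. The CG differences ran from -100 to -17.9 points with a mean of -78.7 points. Since a CG level below 50% in ddm1 control was required, the direction in ddm1 heat is not an independent finding.

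In CHG, 2366 members fell and 7 rose in ddm1 heat, beside 67.9% of all TEs lower and 1.38% higher. Members had to have 30% CHG or more in wt control, so their larger CHG share is partly set by the choice. In CHH, 1597 members fell and 187 rose, beside 28.1% of all TEs lower and 4.5% higher. Members that fell had a median difference of -40.9 points in CHG and -3.28 points in CHH, and the 187 that rose in CHH had a median difference of 3.49 points. The CG, CHG and CHH levels all fell in 1593 members, a count that was not made over all TEs. Under a dispersion scaling, which divides the test statistic by the excess spread seen between heat and control, the CHH split was 1177 lower and 98 higher.

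Among the 4 members with the most CG calls, the loss in ddm1 was nearly complete. AT3TE57085 had 2.77% CG in ddm1 heat (95% interval 2.57 to 2.98%, 23865 calls) and 3.58% in ddm1 control, against 91.0% in wt heat and 88.4% in wt control. Its CHG level was 1.14% in ddm1 heat and 0.985% in ddm1 control, against 48.7% in wt heat and 48.4% in wt control. The CHH level of this TE was 0.785% in ddm1 heat and 0.383% in ddm1 control, against 5.45% in wt heat and 4.61% in wt control. These ddm1 CHH levels lay within 0.1 points of the chloroplast level of the same library.

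The other 3 of them kept between 2.18 and 4.18% CG in ddm1 heat. AT4TE16380 had 2.18% CG and 5.71% CHG in ddm1 heat, against 90.4% and 52.1% in wt heat. AT4TE09560 had 4.18% CG and 0.879% CHG in ddm1 heat, against 90.6% and 48.1% in wt heat. AT4TE08445 had 3.20% CG and 0.832% CHG in ddm1 heat, against 91.3% and 47.5% in wt heat. CHG was therefore above CG in AT4TE16380 and below it in the other 3 TEs.

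The 3 largest CG differences were complete losses at TEs with few calls. AT4TE15180 had no methylated CG call among 72 in ddm1 heat, which allows a level of up to 4.17%, and 2.47% in ddm1 control, against 100% in wt heat and 97.6% in wt control. AT3TE55420 and AT3TE44935 also had 0% CG in ddm1 heat, which their calls allow to be up to 4.84% and 3.23%, against 98.1% and 97.7% in wt heat. In AT1TE51415, 0 of 409 CG calls were methylated in ddm1 heat, an upper limit of 0.733%. A CG level below 5% in ddm1 heat was measured in 830 members (33.7%), and 615 of all members had both CG and CHG below 5%.

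The CG level left in ddm1 varied more between TEs than the wt CG level did, while the CHG levels spread about as widely in both. From the 5th to the 95th percentile, CG ran over 0.828 to 36.0% in ddm1 heat, against 84.1 to 95.5% in wt heat. CHG ran over 0.521 to 32.5% in ddm1 heat, against 30.9 to 64.3% in wt heat. The residual level of a TE was similar in both ddm1 groups, with Spearman coefficients across the 2465 TEs between ddm1 heat and ddm1 control of 0.92 in CG, 0.91 in CHG and 0.82 in CHH. In wt the same coefficients were 0.32, 0.82 and 0.53. These coefficients are across TEs that share libraries and are descriptions only.

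In ddm1 heat the CHG and CHH levels left moved together across members, with a Spearman coefficient of 0.83, and the CHG and CG levels less closely, with 0.59. In wt heat the coefficient was 0.38 between CHH and CHG and 0.08 between CHG and CG. Members with more CHG in wt heat also had more CHG left. Over quartiles of the wt heat CHG level, from low to high, the median CHG level in ddm1 heat was 2.96, 4.62, 6.78 and 11.5%, while the median CG level in ddm1 heat was 9.10, 9.28, 8.46 and 7.39%.

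**Figure D2:**
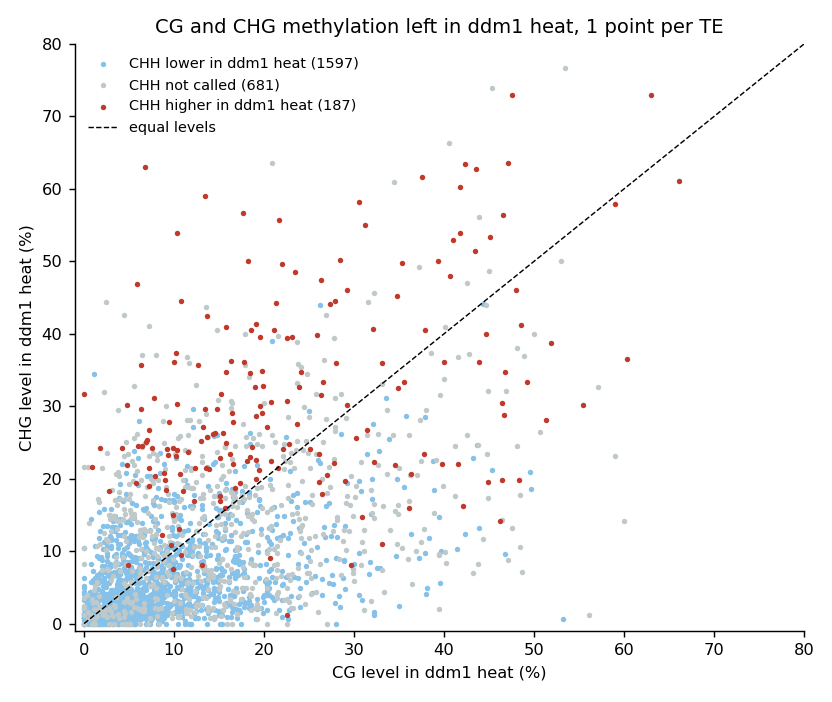
CG level (%, x axis) and CHG level (%, y axis) of each of the 2465 TEs in ddm1 heat, coloured by the CHH call against wt heat, with the dashed line at equal levels. Most TEs with higher CHH in ddm1 heat (red, 187) lie above the line and at high CHG, and those with lower CHH (blue, 1597) crowd near the origin.

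CHG methylation exceeded CG methylation in ddm1 in many members. No member showed this order in wt heat, but members had to have 70% CG or more in wt control. The CHG level was above the CG level in 916 members in ddm1 heat and 699 in ddm1 control, and 622 of them were the same TEs. In 162 members CHG was at least 10% and at least 2 times the CG level in both ddm1 groups. A CHG level of 30% or more was left in 149 members in ddm1 heat. Many of the levels compared were low, since 615 members had both CG and CHG below 5% in ddm1 heat. The counts were not made over all TEs. TEs that met the same limits but had 5% CHH or more in wt control had medians of 10.8% CHG and 7.05% CG in ddm1 heat.

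In 7 members the CHG level rose in ddm1 heat. These are AT1TE53045, AT2TE13525, AT2TE16710, AT3TE57435, AT4TE15215, AT5TE43720 and AT5TE46485, of which AT3TE57435 and AT5TE43720 are named after their values were seen. Their CHG levels were 60.3 to 76.7% in ddm1 heat and 34.4 to 66.2% in ddm1 control, against 34.6 to 65.7% in wt heat and 42.6 to 64.3% in wt control. In control the order was the other way in AT3TE57435 (43.8% in ddm1 and 52.3% in wt), AT5TE43720 (44.3% in ddm1 and 57.9% in wt) and AT5TE46485 (34.4% in ddm1 and 47.2% in wt). Under the dispersion scaling 5 members rose in CHG. The CG levels of the 7 in ddm1 heat were 41.8 to 66.1%, so they were also among the members with the most CG methylation left.

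AT1TE53045 had a CHG level of 76.7% in ddm1 heat and 66.2% in ddm1 control, against 43.3% in wt heat and 48.9% in wt control. The difference in heat was 33.4 points (Fisher's exact test, adjusted p = 4.6e-22). Its CG level was 53.5% in ddm1 heat and 48.8% in ddm1 control, against 88.4% in wt heat and 90.9% in wt control. In AT2TE13525 the CHG level was 72.9% in ddm1 heat and 56.7% in ddm1 control, against 34.6% in wt heat and 42.6% in wt control, a difference in heat of 38.3 points (Fisher's exact test, adjusted p = 2.5e-11). This TE also rose in CHH, with 13.7% in ddm1 heat and 9.99% in ddm1 control, against 2.95% in wt heat and 3.51% in wt control. Both TEs were thus higher in CHG and lower in CG in both ddm1 groups.

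The 187 members that rose in CHH, whose high CHH level in ddm1 heat follows from that choice, also had higher CG and CHG medians in ddm1 heat than the members that fell in CHH. Their medians in ddm1 heat were 19.8% CG, 28.1% CHG and 7.88% CHH, and their wt heat medians were 91.0%, 50.4% and 4.13%. The 1597 members that fell in CHH had medians of 5.84% CG, 3.64% CHG and 1.09% CHH in ddm1 heat, with 90.9%, 49.6% and 4.72% in wt heat. In control, which was not tested, CHH was above wt in 162 of the 187, with a median of 5.67% in ddm1 control and 3.68% in wt control. All 187 fell in CG, 133 fell and 6 rose in CHG, and 140 had CHG above CG in ddm1 heat.

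AT5TE43650 had the highest CHH level of any member in ddm1 heat, 29.2%, and 32.4% in ddm1 control, against 6.92% in wt heat and 4.99% in wt control (adjusted p of the heat difference by Fisher's exact test 3.8e-29). Its CHG level was 50% in ddm1 heat and 60% in wt heat, and its CG level was 18.2% in ddm1 heat and 94.4% in wt heat. AT2TE13365 had 24.2% CHH in ddm1 heat and 15.2% in ddm1 control, against 9.67% in wt heat and 4.97% in wt control. In AT5TE40990 the CHH level was 15.5% in ddm1 heat and 5.54% in ddm1 control, against 0.803% in wt heat and 1.69% in wt control. The ddm1 level was above wt in both pairs in each of these 3 TEs.

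The largest CHH losses were at TEs whose wt heat level stood far above their wt control level. Because the rule held CHH in wt control below 5%, losses this large could occur only at such TEs. AT1TE50935 had 1.98% CHH in ddm1 heat and 0.722% in ddm1 control, against 23.4% in wt heat and 3.91% in wt control. AT1TE52120 had 0.281% in ddm1 heat and 0.737% in ddm1 control, against 19.9% in wt heat and 4.83% in wt control. Of all members, 831 had 5% CHH or more in wt heat and 28 had 10% or more, although all were below 5% in wt control by the rule. The wt heat and ddm1 heat levels would have met every limit in 1542 members.

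Some members kept CG methylation in ddm1 heat while little CHG methylation was left. AT5TE38370 kept 53.2% CG in ddm1 heat and 43.3% in ddm1 control, against 88.9% in wt heat and 91.5% in wt control. Its CHG level was 0.667% in ddm1 heat and 8.22% in ddm1 control, against 74.0% in wt heat and 65.8% in wt control. AT5TE54515 likewise had 56.1% CG in ddm1 heat and 26.9% in ddm1 control, with 1.19% CHG in ddm1 heat and 0 of 169 CHG calls in ddm1 control, an upper limit of 1.78%. Its wt CHG levels were 64.5% in heat and 53.8% in control. In both TEs CG methylation was partly left where CHG methylation was nearly gone, on fewer than 110 CG calls per group.

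A CG level of 50% or more in ddm1 heat was found in 16 members. All had been below the limit in ddm1 control, where they had 26.9 to 48.8% (median 40.4%). AT5TE46485 had the highest, 66.1% in ddm1 heat (384 calls) and 39.0% in ddm1 control (675 calls), against 91.5% in wt heat and 89.3% in wt control.

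More calls fell on these TEs in ddm1. Per 100 calls in genes, members had 1.71 times as many CG calls, 1.61 times as many CHG calls and 1.5 times as many CHH calls in ddm1 heat as in wt heat, and for all TEs with enough calls the ratios were 1.63, 1.55 and 1.46. The ratio to wt heat per member, computed from CHH calls only, was above 1 in 2350 of 2465 members in ddm1 heat (median 1.39) and in 995 in poliv heat (median 0.972). The part of these call numbers in the level differences was not tested. Reads from near-identical copies of a TE cannot be told apart in the table.

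In poliv, 1912 of 2465 members passed the test against wt heat in no context, a count that was not made over all TEs. In CHH, 243 members fell and 68 rose in poliv heat, beside 14.5% of all TEs lower and 1.93% higher. In CHG, 97 fell and 51 rose, beside 7.75% lower and 1.24% higher, and in CG, 177 fell and 15 rose, beside 6.85% lower and 1.68% higher. Under the dispersion scaling the splits were 37 lower and 1 higher in CHH, 40 and 11 in CHG, and 46 and 1 in CG.

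The mean poliv minus wt difference under heat was -1.11 points in CG, -1.47 points in CHG and -0.41 points in CHH over members. It was -1.22, -2.85 and -1.09 points over the TEs with enough calls in every context, and -1.36, -3.20 and -2.07 points over all TEs tested. In control, where wt had been used for the choice, the mean difference was 0.002 points in CG, -3.06 points in CHG and 0.36 points in CHH. Of the members that fell in heat, the control difference had the same sign in 149 of 243 in CHH, 87 of 97 in CHG and 93 of 177 in CG. Members that fell in CHG had medians of 25.6% CHG in poliv heat and 30.5% in poliv control, against 45.3% in wt heat and 43.5% in wt control. Members that fell in CG had medians of 86.4% CG in poliv heat and 88.2% in poliv control, against 91.4% in wt heat and 88.1% in wt control, so their CG level in poliv control was about that of wt control.

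**Figure D3:**
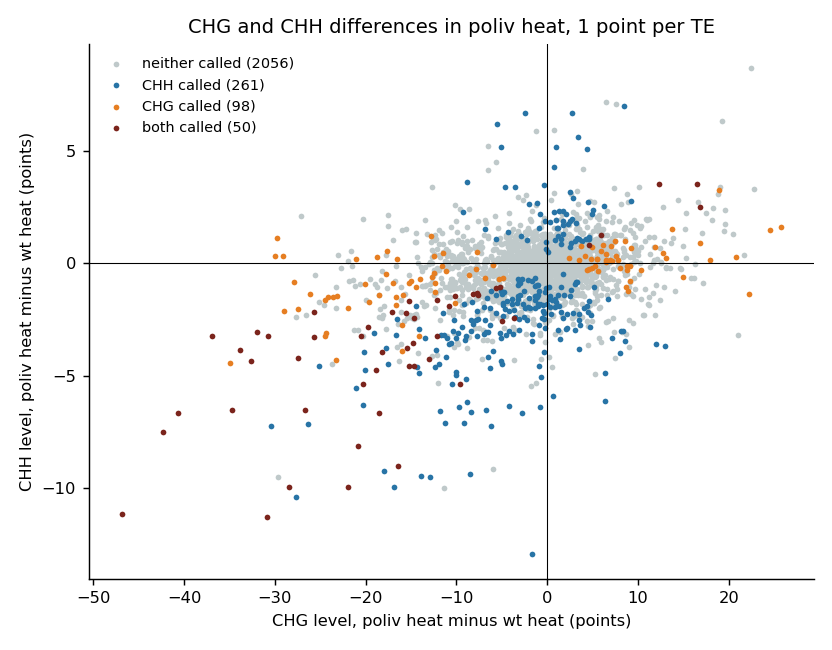
Difference in level between poliv heat and wt heat (percentage points) in CHG (x axis) and CHH (y axis) for each of the 2465 TEs, coloured by which of the contexts passed the test. Most TEs lie near 0 in both, and the TEs past the test in both contexts lie mainly at lower left, down to -46.9 points in CHG and -11.1 points in CHH.

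The losses in poliv were large at few members, and 11 fell in all 3 contexts, which was not counted over all TEs. AT1TE31970 was among the 3 largest losses in every context. Its CG level was 48.9% in poliv heat and 52.1% in poliv control, against 95% in wt heat and 87.0% in wt control (heat difference, Fisher's exact test, adjusted p = 2.4e-16). Its CHG level was 0 of 60 calls in poliv heat, an upper limit of 5%, and 13.5% in poliv control, against 46.9% in wt heat and 42.1% in wt control. Its CHH level was 1.08% in poliv heat and 0.760% in poliv control, against 12.2% in wt heat and 4.26% in wt control. In ddm1 heat this TE had 15.0% CG, 1.19% CHG and 1.75% CHH.

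AT2TE27335 also fell in all 3 contexts. It had 55.2% CG in poliv heat and 49.3% in poliv control, against 94.7% in wt heat and 82.2% in wt control. Its CHG level was 6.58% in poliv heat and 14.4% in poliv control, against 47.2% in wt heat and 38.0% in wt control. AT4TE00815 had the largest CG loss, with 33.8% in poliv heat and 53.4% in poliv control, against 89.0% in wt heat and 87.5% in wt control (Fisher's exact test, adjusted p = 1.3e-11). In AT1TE23840 CHG was 4.26% in poliv heat and 9.15% in poliv control, against 46.6% in wt heat and 35.3% in wt control, while CG was 96.0% in poliv heat and 94.0% in wt heat. CG methylation was thus retained at this TE and partly lost at the other 3.

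Members that rose in poliv heat had median differences of 9.86 points in CG, 7.78 points in CHG and 1.89 points in CHH, against -4.83, -16.7 and -2.74 points in members that fell. These medians are over members past the test, and a smaller difference passes where calls are many. Over quartiles of the number of calls, from few to many, CG fell in 18, 31, 22 and 106 members and rose in 4, 5, 6 and 0. The sizes of gains and losses can therefore not be compared from these medians. AT1TE35675 had 98.0% CG in poliv heat and 88.4% in poliv control, against 75.7% in wt heat and 75.4% in wt control. AT2TE25365 had 76.2% CHG in poliv heat and 65.5% in poliv control, against 50.4% in wt heat and 62.0% in wt control. AT2TE11320 had 10.7% CHH in poliv heat and 2.93% in poliv control, against 3.70% in wt heat and 2.27% in wt control. In this TE ddm1 CHH was 9.90% in heat and 0.777% in control.

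Fewer calls per TE went with lower CHG and CHH levels in poliv. Over quartiles of the number of calls, from few to many, the mean poliv minus wt difference under heat was -4.27, -1.73, -0.32 and 0.45 points in CHG and -0.78, -0.59, -0.23 and -0.04 points in CHH. The median CG level in ddm1 heat over the same quartiles was 12.0, 9.94, 8.03 and 5.56%. The part of the number of calls in these differences was not tested.

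Few members differed between poliv heat and poliv control. Against poliv control, 26 members fell and 73 rose in CHH in poliv heat, beside 1.4% of all TEs lower and 2.68% higher. In CG, 8 fell and 18 rose, beside 0.469% lower and 0.589% higher, and in CHG, 2 fell and 1 rose, beside 0.142% lower and 0.0762% higher. The CHH split turned round, to 70 lower and 36 higher, once the chloroplast level of both groups had been matched, with 62 of the 99 calls shared. Under the dispersion scaling no member was called in CG or CHH and 1 in CHG. Any context was called in 124 members, and 2 or more contexts in 3, counts that were not made over all TEs.

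AT1TE45795 fell in each context in poliv heat. It had 87.2% CG in poliv heat and 90.7% in poliv control (adjusted p = 9.4e-05), 33.7% CHG in poliv heat and 40% in poliv control (adjusted p = 0.0011), and 4.73% CHH in poliv heat and 5.92% in poliv control (adjusted p = 0.0044), all by Fisher's exact test. In wt this TE had 91.5% CG in heat and 89.2% in control. AT5TE39215 had the largest CG loss, with 67.9% in poliv heat and 86.9% in poliv control, and 89.5% in wt heat and 92.2% in wt control. AT2TE18240 was the 1 member that rose in CHG, with 67.1% in poliv heat and 48.0% in poliv control, and 52.2% in wt heat and 46.8% in wt control. AT2TE20335 had the largest CHH gain, with 11.9% in poliv heat and 3.24% in poliv control, and 5.95% in wt heat and 3.3% in wt control.

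Heat differences in wt and ddm1 are descriptions, since their control levels chose the members. In wt the mean heat minus control difference was 1.62 points in CG, -1.69 points in CHG and 1.00 points in CHH, while the chloroplast differed by 0.342, 0.339 and 0.313 points. Differences of 10 points or more in CG were lower in 28 members and higher in 70, beside 2.55% and 4.74% of all TEs. In CHG 190 were lower and 84 higher, beside 6.91% and 3.81%. Differences of 2 points or more in CHH were lower in 29 and higher in 391, beside 13.6% and 21.1%.

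The CHH difference in wt was larger where the wt control level was lower. It averaged 1.87 points in the 258 members with less than 2% CHH in wt control, 1.13 points in the 464 with 2 to 3%, 0.951 points in the 774 with 3 to 4% and 0.742 points in the 969 with 4 to 5%. The wt control level is on both sides of this comparison, as the starting value and in the difference.

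In ddm1 the mean heat minus control difference was -1.03 points in CG, 1.07 points in CHG and 0.62 points in CHH, with chloroplast differences of 0.359, 0.327 and 0.355 points. CG was lower by 10 points or more in 76 members and higher in 37, beside 4.43% and 2.28% of all TEs. CHG was lower in 8 and higher in 74, beside 0.893% and 2.86%. CHH was lower by 2 points or more in 26 and higher in 195, beside 5.98% and 18% of all TEs. With a median CHH level of 1.04% in ddm1 control, most members could not fall by 2 points. The poliv means were 0.51 points in CG, -0.10 points in CHG and 0.23 points in CHH, with chloroplast differences of 0.268, 0.279 and 0.299 points.

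**Figure D4:**
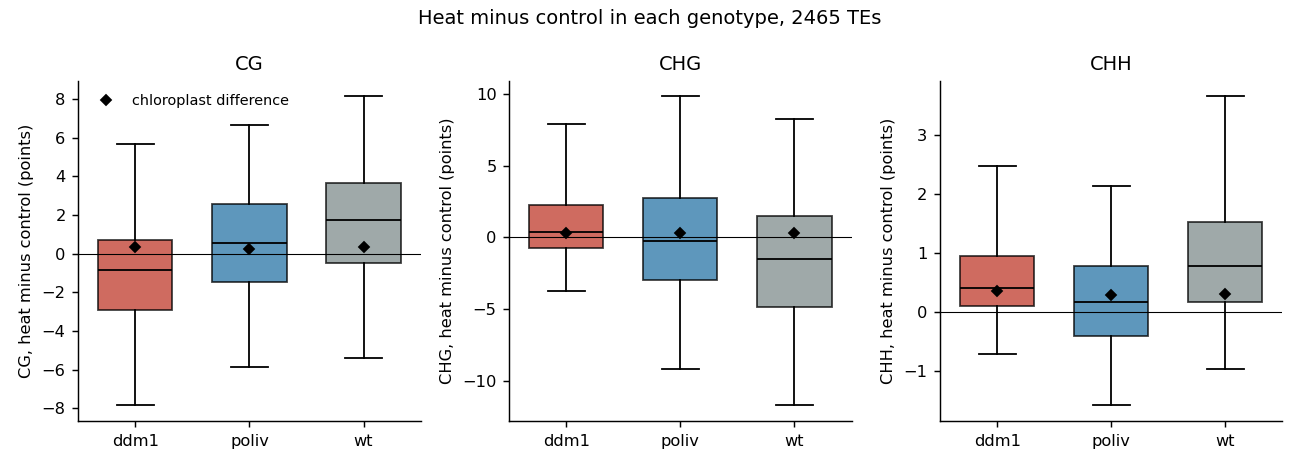
Heat minus control difference (percentage points) of the 2465 TEs in ddm1, poliv and wt in each context. Boxes span the quartiles with the median as a line, whiskers run over the 5th to the 95th percentile, and diamonds give the chloroplast difference. Medians lie within 2 points of 0 in every panel, with wt highest in CG and CHH and lowest in CHG.

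The heat differences of a TE in the 3 genotypes were not correlated across the 2465 members, with Spearman coefficients between -0.04 and 0.02 in each context and pair of genotypes. CHH was higher by 2 points or more in heat in all 3 genotypes in 16 members and lower in none. This overlap was not counted over all TEs. Such rises were found in 15.9% of members in wt, 5.72% in poliv and 7.91% in ddm1, against 21.1%, 14.3% and 18% of all TEs. The median CHH level in ddm1 control was 1.04%, so most members could not fall by 2 points in all 3 genotypes. No member differed by 10 points or more in the same direction in all 3 genotypes in CG or CHG.

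Members lay mainly in the middle of the identifier order of each chromosome. TE identifiers are numbered in order along a chromosome, and their coordinates were not used here. The shortest runs of identifiers holding 80% of the members of each chromosome contained 9812 TEs (31.5% of all) and 1973 members. Of the TEs with enough calls, which alone could be members, the runs of the 5 chromosomes held 43.6 to 56.4%, so TEs with enough calls were concentrated there too. Chromosomes 1 to 5 held 335, 592, 532, 520 and 486 members. With TEs short of calls left out of the order, 1312 pairs of members stood next to each other. The longest run of members in that order counted 21, from AT2TE13490 to AT2TE13685, both named here after the run was found. TEs with too few calls can lie between such neighbours. Neighbours had similar residual levels in ddm1 heat, with Spearman coefficients of 0.39 in CG, 0.35 in CHG and 0.33 in CHH, against 0.08, 0.17 and 0.19 in wt heat.

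**Figure D5:**
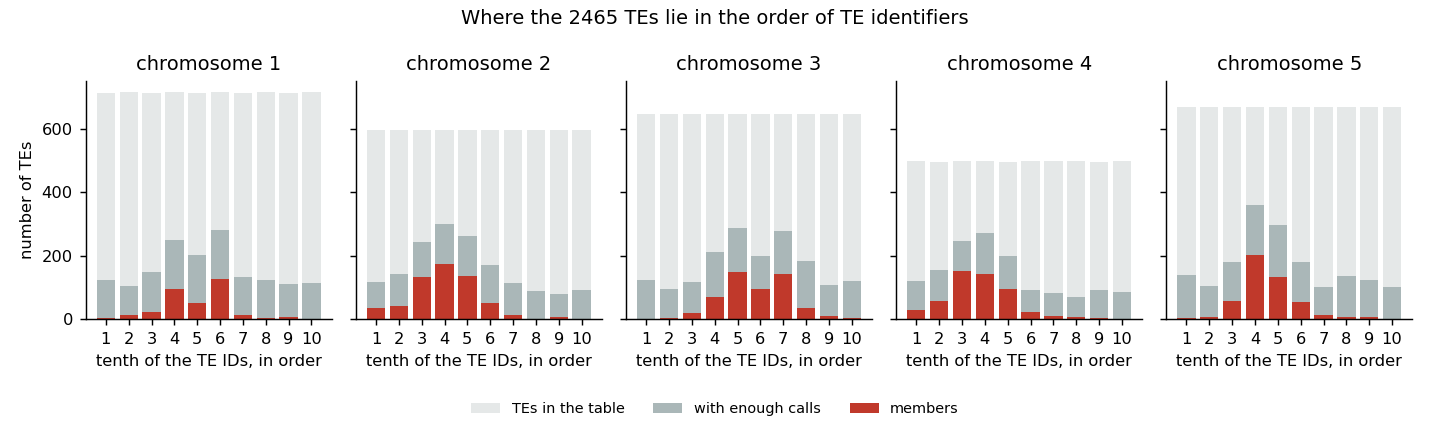
Number of TEs in 10 bins of equal size of the TE identifiers of chromosomes 1 to 5, in identifier order (x axis), for all TEs in the table (light grey), those with enough calls (dark grey) and members (red), drawn over each other from 0. Members pile up in the middle bins, and the last bin of each chromosome holds 0 to 3.

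The 492 members outside these runs kept more CG methylation in ddm1 and had less CHG and CHH methylation in poliv. Their median CG level in ddm1 heat was 14.4%, and it was 7.44% inside the runs. Their median CHG level was 43.1% in poliv heat and 46.4% in wt heat, against 50.1% in poliv heat and 50.3% in wt heat inside. Outside, 9.15% of members fell in CHG and 19.1% in CHH in poliv heat, against 2.64% and 7.55% inside. In CG the order was the other way, with 4.67% outside and 7.81% inside. These differences by position were not tested.

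TEs that met the same limits but had 5% CHH or more in wt control, 2757 in number, are the class nearest to the members. Among them 21.0% fell in CHH in poliv heat, against 9.86% of members, and 7.76% fell in CHG, against 3.94% of members. Their median CHH level was 6.34% in poliv heat and 7.12% in wt heat, and in ddm1 heat they had medians of 7.05% CG, 10.8% CHG and 2.99% CHH. Of these 2757, 97.2% fell in CHG and 73.8% in CHH in ddm1 heat, against 96.0% and 64.8% of members. In the 512 TEs with 70% CG or more and CHG below 30% in wt control, the median CG level in ddm1 heat was 20.8%, against 8.37% in members, and 15.0% fell in CHG in poliv heat. These 512 had no limit on CHH or on CG in ddm1 control, while members had to be below 50% CG there. The lower CG median of members is therefore partly set by the choice. These differences between classes were not tested, because TEs are not replicates and the classes were cut from the same wt column.

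Lists of TEs induced by heat and of TEs with a potential heat-shock factor binding site come from the study, were chosen on RNA of the same experiment and are no independent evidence. The binding-site list holds TEs with a potential HSFA2 motif among those still upregulated in inflorescences of heated poliv plants at day 28. Of 54 TEs on the heat-induced list, 39 had enough calls and 15 were members, among them 7 copies of ATGP10 and 2 of ATGP2, both LTR/Gypsy retrotransposons, and 2 of ROMANIAT5, an LTR/Copia retrotransposon. The others were 1 copy each of ATLANTYS2, ATCOPIA28, VANDAL20 and HELITRON5. In ddm1 heat all 15 fell in CG and CHG and 14 fell in CHH. Of all members 100% fell in CG, 96.0% in CHG and 64.8% in CHH, so the CG and CHG counts are about those of any member. In CHH, 230, 375, 429 and 563 members fell over quartiles of the number of calls, from few to many. The part of the number of calls in the CHH count of the 15 was not tested. The levels of the 15 in ddm1 heat had medians of 5.24% CG, 4.37% CHG and 0.942% CHH, against 91.4%, 49.0% and 4.87% in wt heat.

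In poliv heat 6 of the 15 fell in CG and 1 rose in CHG, and in CHH 1 fell and 1 rose. Of all members 7.18% fell in CG, 2.07% rose in CHG, and 9.86% fell and 2.76% rose in CHH. Over quartiles of the number of calls, from few to many, 18, 31, 22 and 106 members fell in CG in poliv heat. The median CG difference was -1.89 points in the 15 and -1.09 points in all members. The part of the number of calls in these counts was not tested. AT3TE57100, an ATGP10 copy, had 81.1% CG in poliv heat and 82.8% in poliv control, against 89.6% in wt heat and 84.8% in wt control. AT2TE15415, another ATGP10 copy, rose in CHG, with 44.0% in poliv heat and 41.6% in poliv control, against 38.5% in wt heat and 40.7% in wt control. Against poliv control, 1 of the 15 was called in CG. This was AT3TE51895, a ROMANIAT5 copy, with 94.2% in poliv heat and 88.9% in poliv control. None of the 15 was called in CHG or CHH in that comparison.

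Of 65 TEs on the binding-site list, 59 had enough calls and 10 were members. In ddm1 heat all 10 fell in CG and CHG, 7 fell in CHH and 1 rose, which is close to the shares of all members, of which 7.59% rose in CHH. The 1 that rose, AT2TE16530, had 6.18% CHH in ddm1 heat and 5.82% in ddm1 control, against 4.44% in wt heat and 4.10% in wt control. In poliv heat 3 of the 10 fell in CG and 1 rose in CHG, and in CHH 1 fell and 1 rose, beside the same shares of all members as for the heat-induced TEs. The median CG difference of the 10 was -1.64 points, and the part of the number of calls in these counts was not tested. Of 8 copies of the heat-responsive LTR/Copia retrotransposon ONSEN, 5 had enough calls and none was a member.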

How the data were processed

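Per the labels and methods, the authors used Trim Galore 0.6.2 for trimming, Bismark 0.22.2 with TAIR10 for alignment and deduplication, methylpy for calling and bedtools 2.27 for format conversion. The deposited table lists counts of methylated and of all cytosine calls for every gene and TE by context and group. Levels were computed from these counts, and 18 columns holding the deposited methylated fraction were not used. The sources used here do not say how both libraries of a group were combined, or whether they came from separate cultures, so every column stands for a pooled group. The table has 69873 features, of which 2 name no locus and were not among the TEs, and its smallest coverage is 21. The call totals per group were summed over all features.

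The members, lists and tests were chosen with earlier results of these data known. The 3 comparisons of columns not used by the choice of members were tested for each TE with 30 or more calls in that context in all 6 groups, by Fisher's exact test (two-sided, p as 2 times the smaller tail) with Benjamini-Hochberg adjustment and a threshold of 0.05. The test was checked on simulated data. TEs were named by rule: per tested comparison and context the 3 largest gains and 3 largest losses past the test with 50 or more calls in both columns, the 4 members with the most CG calls, members on the lists, the TEs nearest to each limit, and the 3 members with the highest and lowest CG and the highest CHG and CHH levels in ddm1 heat. The text gives a part of these. Alternatives were a minimum of 60 calls, matching of chloroplast levels by turning unmethylated calls methylated at random (seed 7), dispersion scaling, size limits of 20 points (4 in CHH), CHH below 2% in wt control, levels weighted by calls, medians, and subtraction of the chloroplast level. Python 3.11.15, NumPy 2.4.6, pandas 2.3.3, SciPy 1.17.1 and Matplotlib 3.10.9 were used.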

Additional observations from a re-analysis of the deposited data

How the results depend on the processing

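No paired analysis was possible because the table holds 1 pooled column per group, and for the same reason no replicate could be left out. Of the 27 counts of members called under another setting, 21 stayed within 1.5 times. The dispersion scaling lowered the other 6: poliv heat against wt heat went to 47 called in CG (192 without scaling), 51 in CHG (148) and 38 in CHH (311), and poliv heat against poliv control to 0 in CG (26), 1 in CHG (3) and 0 in CHH (99). This scaling takes its factor from the spread between heat and control, so it lowers heat calls by construction. With size limits of 20 points (4 in CHH), wt heat against wt control kept 4 members in CG (98 at the smaller limit), 26 in CHG (274) and 101 in CHH (420), and ddm1 heat against ddm1 control kept 10 in CG (113), 8 in CHG (82) and 53 in CHH (221).

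The mean difference changed sign in 5 cases: poliv heat minus wt heat in CHG was 0.135 points when weighted by calls, poliv heat minus control in CHG was 1.34 points and ddm1 control minus wt control in CHH 0.075 points (-1.62 in all members) in the 258 members with CHH below 2%, and with the chloroplast level subtracted poliv heat minus control in CHH was -0.066 points and poliv control minus wt control in CG -0.019 points. The cause was not tested. With 60 calls, 2004 of 5668 TEs were members. Single TEs rest on as few as 30 calls in a context, where a difference of a few points is not detectable.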
